A study of Mus musculus with 7 samples.

Results

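Patj and 7 other genes of apicobasal cell polarity were followed in mouse embryonic stem cells in which the RNA methyltransferase Mettl3 had been knocked down. The 8 genes are Patj (named Inadl in the annotation of the array), Pard3, Pard6b, Prkci, Prkcz, Scrib, Dlg1 and Llgl1. They were chosen by name, with earlier results of the comparison between Mettl3 and luciferase hairpins known, so their differences from luciferase are a description. Where it is said below that a gene or probe set of the 8 passed limma's or diffSplice's threshold against luciferase, this places it in the fit over all genes and is no evidence of its own, and no p is given. They are 8 of 22083 gene symbols on the array. Probe sets were taken where the platform annotation gave exactly that symbol, which yielded 280 of 1201338 probe sets, and 256 of the 280 passed a filter on dim signal. By the RefSeq gene table, Patj and Prkcz lie on chromosome 4, Pard3 on 8, Pard6b on 2, Prkci on 3, Scrib on 15, Dlg1 on 16 and Llgl1 on 11.

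Cells of the J-1 line, an established line of mouse embryonic stem cells, were infected with lentiviruses and kept in full medium, and total RNA of each sample was hybridised to 1 Affymetrix Mouse Exon 1.0 ST array. The 7 samples form 3 groups, all of them infected: 3 with a short hairpin RNA against luciferase (an insect gene absent from mouse cells), 2 with Mettl3 hairpin 1 and 2 with Mettl3 hairpin 2. The control samples were infected too, and a knockdown leaves part of the target RNA in place. The time after infection, any selection of infected cells and whether replicates came from separate infections are not stated in the labels, so the p-values below rest on a spread between arrays that could be technical. The deposited values are log2 expression values made with RMA, and a difference of 1 on this scale is a doubling of signal.

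Apicobasal polarity is set up by 3 groups of scaffold and kinase proteins that hold each other to opposite sides of an epithelial cell. The Crumbs complex and the Par complex mark the apical side and the tight junction, and the Scribble group marks the basolateral side. Patj is a scaffold with many PDZ domains that binds Pals1 (gene Mpp5) in the Crumbs complex and joins it to tight junction proteins. Pard3 and Pard6b are the scaffolds of the Par complex, and Prkci and Prkcz encode its atypical protein kinase C enzymes. Scrib, Dlg1 and Llgl1 encode the Scribble group, and Llgl1 is phosphorylated and displaced from the apical side by atypical protein kinase C. Embryonic stem cells grow as compact colonies joined by E-cadherin, and the outer cells of the early embryo use the same proteins when they become polar.

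RefSeq (GRCm38.p6) lists 3 transcription starts for Patj on the plus strand of chromosome 4. They are shown because the probe sets of Patj differed from each other, as given below. The second start lies 15201 bases after the first and the third lies 150808 bases after the first. The 250 bases before each start follow, 5′ to 3′, with CG dinucleotides in capitals.
start 1 (chr4:98395576-98395825): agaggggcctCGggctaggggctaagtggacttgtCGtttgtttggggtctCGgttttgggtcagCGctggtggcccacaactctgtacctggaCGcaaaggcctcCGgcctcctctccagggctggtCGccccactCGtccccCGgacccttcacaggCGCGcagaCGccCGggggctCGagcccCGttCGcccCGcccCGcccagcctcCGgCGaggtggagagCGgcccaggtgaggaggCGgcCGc
start 2 (chr4:98410777-98411026): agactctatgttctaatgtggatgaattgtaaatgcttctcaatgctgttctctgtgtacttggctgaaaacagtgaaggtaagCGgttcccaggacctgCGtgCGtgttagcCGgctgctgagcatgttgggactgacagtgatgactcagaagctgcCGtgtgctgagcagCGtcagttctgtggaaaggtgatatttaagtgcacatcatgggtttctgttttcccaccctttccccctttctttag
start 3 (chr4:98546384-98546633): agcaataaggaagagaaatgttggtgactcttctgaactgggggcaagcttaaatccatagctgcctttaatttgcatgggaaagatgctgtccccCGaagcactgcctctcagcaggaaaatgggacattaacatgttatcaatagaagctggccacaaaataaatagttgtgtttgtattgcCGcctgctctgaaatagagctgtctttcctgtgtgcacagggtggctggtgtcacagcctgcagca
The window of the first start holds 23 CG dinucleotides, that of the second 6 and that of the third 2. Counted over 300 bases, from 250 before to 50 after the start, the CG numbers are 25, 9 and 4. Of all 32851 such windows in the RefSeq table, 18.4%, 45.8% and 68.6% hold at least as many. CG was searched as these letters, which read the same on both strands and do not overlap each other. The probe sets could not be placed before or after these starts, because no probe coordinates were used here.

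The other genes differ widely in the number of starts and in CG content. The table holds 15 windows for 7 of the 8 genes: 3 each for Patj and Prkcz, 4 for Dlg1, 2 for Pard3 and 1 each for Pard6b, Prkci and Llgl1. Scrib has no entry. The window of Pard6b holds 47 CG dinucleotides, a number reached or passed in 1.44% of all windows, and the first of Pard3 holds 42. The single windows of Prkci and Llgl1 hold 22 and 23. The 4 windows of Dlg1 hold 10, 27, 4 and 4. A CG count describes the letters of a window and says nothing about whether the start is in use in these cells.

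The label check came first. Mettl3, the enzyme that makes N6-methyladenosine in messenger RNA, was at 10.38, 10.46 and 10.14 with luciferase, at 8.97 and 8.67 with hairpin 1 and at 8.71 and 8.66 with hairpin 2. All 4 knockdown arrays lay below all 3 luciferase arrays, and the mean fell by 1.57 on the log2 scale (SE 0.105, limma adjusted p = 0.000116). Medians of the 1201338 values differed little between arrays (6.03 to 6.07), and the median difference over 16353 genes was 0.00. The mean gene value of 8 embryonic stem cell markers was similar on all arrays. It lay between 11.72 and 11.84 with luciferase and between 11.62 and 11.86 with the Mettl3 hairpins, and none of the 8 passed limma's test at an adjusted p of 0.05. Single markers could shift: Klf4 was at 10.70, 10.65 and 10.70 with luciferase, at 10.58 and 10.45 with hairpin 1 and at 10.90 and 10.93 with hairpin 2. These opposite shifts cancel in the comparison of both hairpins (0.03). Nanog lay below luciferase on all 4 knockdown arrays, by a small difference (-0.08). Krt8 and Krt18, keratins of the trophectoderm and other epithelia, and Acta2 and Tagln, found in fibroblasts and muscle, rose (2 of 8 trophectoderm and 2 of 11 fibroblast markers). The mean of the 8 trophectoderm markers was 7.86 to 7.96 with luciferase and 8.04 to 8.18 with the Mettl3 hairpins, and that of the 11 fibroblast markers was 7.31 to 7.41 and 7.29 to 7.59. Most of the other markers on these 2 lists did not rise. The median difference of both hairpins from luciferase was -0.01 for trophectoderm, with 4 of 8 markers above 0. For fibroblasts it was -0.11, with 3 of 11 above 0. Cubn fell, 1 of 8 primitive endoderm markers, whose mean was 7.23 to 7.24 with luciferase and 6.99 to 7.13 with the Mettl3 hairpins. Of 6 neural markers Map2 and Nes rose and Sox1 fell, and their mean was 7.76 to 7.84 and 7.98 to 8.06 in the same order. The part of these genes and cell types in the polarity results was not tested. In RNA from whole cultures, a change in the share of a cell type and a change in RNA per cell cannot be told apart.

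Patj had the largest difference of the 8 genes. A gene value is the median of a gene's kept probe sets on each array, where kept means a mean over the 7 arrays above 6.02, the median of all probe sets. Patj was at 6.74, 6.93 and 6.91 with luciferase, at 7.71 and 7.61 with hairpin 1, and at 7.46 and 7.48 with hairpin 2. The groups did not overlap: the lowest knockdown array lay above the highest luciferase array, and both hairpin 1 arrays lay above both hairpin 2 arrays. The difference of both hairpins from luciferase was 0.71 ± 0.082 (SE, n = 4 against 3), or 1.63-fold, with a 95% interval of 0.52 to 0.89. Hairpin 1 alone was 0.80 above luciferase (0.58 to 1.02) and hairpin 2 alone 0.61 (0.39 to 0.83), against the same luciferase arrays. The filter that feeds these gene values used the knockdown arrays too. Of the 49 kept Patj probe sets, 5 had a luciferase mean not above 6.02 and were kept through the knockdown arrays. The median difference of single probe sets was 0.68 over all 49 and 0.51 over the other 44, so the gene-level size depends in part on the filter.

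The 2 scaffolds of the Par complex were slightly higher in the knockdown. Pard3 was at 8.47, 8.40 and 8.49 with luciferase, at 8.64 and 8.68 with hairpin 1 and at 8.61 and 8.69 with hairpin 2, and the groups did not overlap (difference 0.20 ± 0.075 SE). Pard6b was at 9.81, 9.61 and 9.58, at 9.86 and 9.85, and at 9.70 and 9.89 in the same order. One hairpin 2 array of Pard6b lay below the highest luciferase array, so its groups overlapped (difference 0.16 ± 0.089 SE).

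The 2 kinases differed in sign. Prkci was at 11.34, 11.29 and 11.20 with luciferase, at 11.17 and 11.03 with hairpin 1 and at 11.07 and 11.12 with hairpin 2, a difference of -0.18 ± 0.080 (SE). All 4 knockdown arrays of Prkci lay below all 3 luciferase arrays, by a narrow gap. Prkcz was at 8.40, 8.39 and 8.21, at 8.45 and 8.39, and at 8.26 and 8.50 in the same order. Its groups overlapped almost entirely (difference 0.07 ± 0.091 SE). The array also has 3 probe sets named for both Prkcz and the near copy Prkcz2; they were left out, their differences were 0.40, 0.23 and 0.29, and signal of the copy in the other Prkcz probe sets cannot be told apart.

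In the Scribble group, Llgl1 had the second largest difference of the 8 genes. Llgl1 was at 8.66, 8.82 and 8.80 with luciferase, at 9.10 and 9.02 with hairpin 1 and at 8.91 and 9.32 with hairpin 2 (difference 0.33 ± 0.106 SE). All knockdown arrays of Llgl1 lay above the luciferase arrays, and the hairpin 2 replicates lay far apart. Scrib was at 9.43, 9.35 and 9.25, at 9.65 and 9.55, and at 9.42 and 9.49, with overlap at the level of the highest luciferase array (difference 0.18 ± 0.080 SE). Dlg1 was at 10.65, 10.69 and 10.68, at 10.66 and 10.44, and at 10.51 and 10.58. Its knockdown arrays lay lower except for a hairpin 1 array among the luciferase arrays (difference -0.13 ± 0.082 SE).

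**Figure D1:**
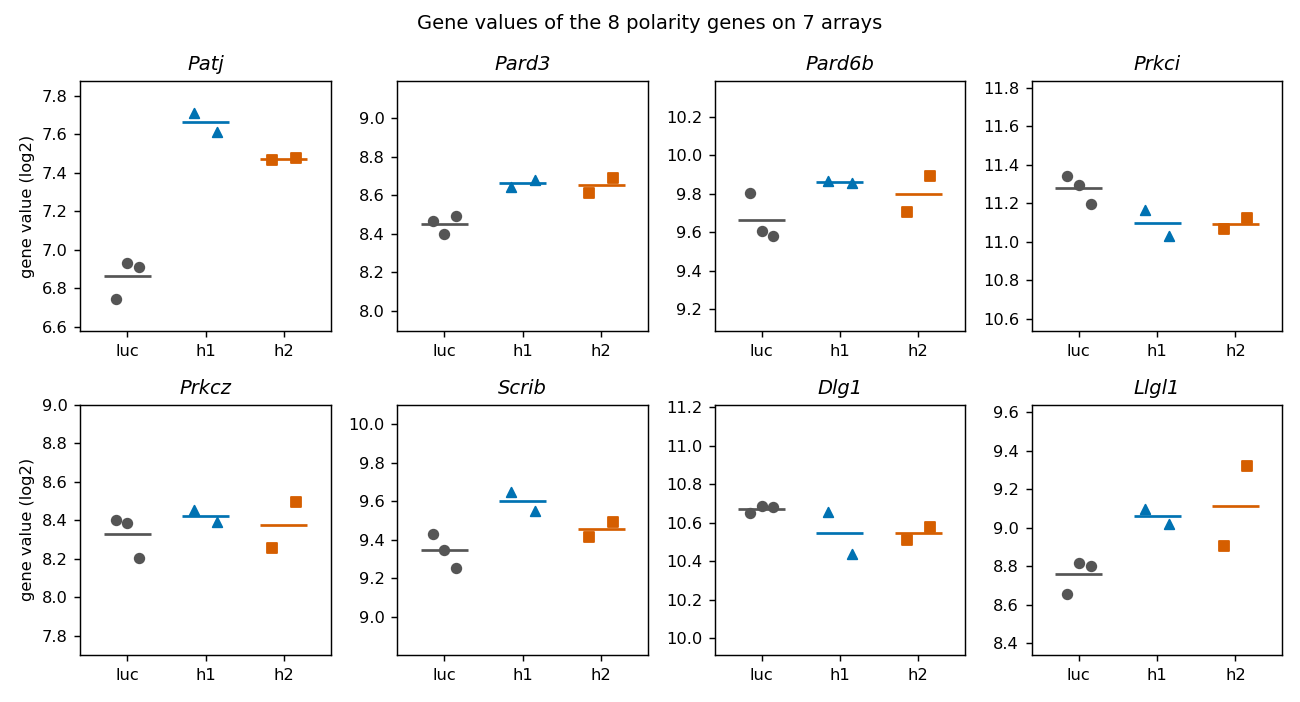
Gene values (log2) of the 8 polarity genes on each of the 7 arrays, with luciferase (luc) as circles, Mettl3 hairpin 1 (h1) as triangles, Mettl3 hairpin 2 (h2) as squares and group means as lines; every panel spans the same height on the log2 scale. The 4 knockdown arrays of Patj sit between 7.46 and 7.71, above the 3 luciferase arrays at 6.74 to 6.93, while the other 7 genes differ by 0.33 or less.

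At an adjusted p of 0.05 (limma, Benjamini-Hochberg over 16353 genes), 1 of the 8 genes, Patj, passed in the comparison of both hairpins with luciferase, where 7.9% of all genes passed. Patj was also the 1 gene of 8 that passed with hairpin 1 (5.89% of all genes) and with hairpin 2 (3.79%), and these comparisons share their luciferase arrays. The genes had been chosen with these values known, so nothing is read from the counts. The 4 knockdown arrays lay above the luciferase arrays for 3 of the 8 genes (Patj, Pard3 and Llgl1; 13.4% of all genes) and below them for Prkci (8.4%). The median difference of the 8 genes was 0.17, beside 0.00 over all genes. Leaving out either hairpin 2 array ended the Patj call for hairpin 2 (0 of 8). Keeping all dim probe sets ended it for each hairpin alone and lowered the difference of both hairpins to 0.52. When the mean or a median polish replaced the median of probe sets, Prkci (-0.31 and -0.28), Llgl1 and Pard3 also passed and the Dlg1 difference was -0.02 and -0.03. The share of all genes that passed with these summaries was not computed.

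The difference between hairpin 1 and hairpin 2 uses no luciferase value and was tested. Its spread was estimated over all 7 arrays, and the filter on dim probe sets used all 7 as well. None of the 8 genes passed (limma, 0.104% of all genes passed), and none had an unadjusted p below 0.05 (8.78% of all genes). Under each of the alternatives run, 0 of the 8 passed as well. Patj was 0.19 higher with hairpin 1, with a 95% interval of -0.05 to 0.43 (limma, adjusted p = 0.669). The intervals of the other 7 differences were of like width. The narrowest was -0.21 to 0.23 for Pard3 and the widest -0.36 to 0.26 for Llgl1. With 2 arrays per hairpin, differences within these intervals are not excluded.

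The difference of Patj varied widely between its probe sets. An exon array carries many probe sets per gene, each aimed at a stretch of about an exon, and Patj has 63, of which 49 were kept. Their differences ran from -0.07 to 2.00 with a median of 0.68. In 13 of the 49 the difference was at least 1 (0.3% of all kept probe sets), in 20 it lay between 0.25 and 1, and in 16 it lay within 0.25 of 0. The SD over the 49 differences was 0.576. Over the 3698 genes with at least 20 kept probe sets the median SD was 0.157, and 2 genes had a larger SD than Patj. Probe sets of 1 gene share the same RNA and are not replicates of the condition.

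The probe sets at the top were higher on every knockdown array. Probe set 5191701 was at 6.74, 6.95 and 7.13 with luciferase, at 9.37 and 9.03 with hairpin 1 and at 8.48 and 8.89 with hairpin 2 (difference 2.00 ± 0.15 SE, 4.01-fold). Probe set 5082141 was at 6.28, 6.39 and 6.27, at 8.59 and 8.10, and at 8.01 and 8.16 (difference 1.90 ± 0.13 SE). In both, even the lowest knockdown array lay more than 1 above the highest luciferase array. Probe set 4778118 was at 7.47, 7.70 and 7.43, at 9.30 and 9.16, and at 8.86 and 8.94 (difference 1.53 ± 0.10 SE). Probe set 5288785 was at 8.12, 8.25 and 7.75, at 9.54 and 9.49, and at 9.32 and 9.29 (difference 1.37 ± 0.13 SE). These probe sets and 4948254 (1.80), 4630142 (1.64), 5551081 (1.54) and 4647825 (1.39) were the 8 with the largest difference, and none had overlapping groups. They were picked by the size of that difference, so the separation of their groups follows largely from the pick.

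Other Patj probe sets did not separate the groups at all. Probe set 4864170 was at 7.27, 7.36 and 7.45 with luciferase, at 7.68 and 7.03 with hairpin 1 and at 7.40 and 7.07 with hairpin 2 (difference -0.07). Probe set 5107714 was at 8.14, 8.62 and 8.58, at 8.38 and 8.5, and at 8.64 and 8.23. On all 7 arrays it lay well above the threshold of 6.02. These 2 were picked as examples after their values were seen.

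**Figure D2:**
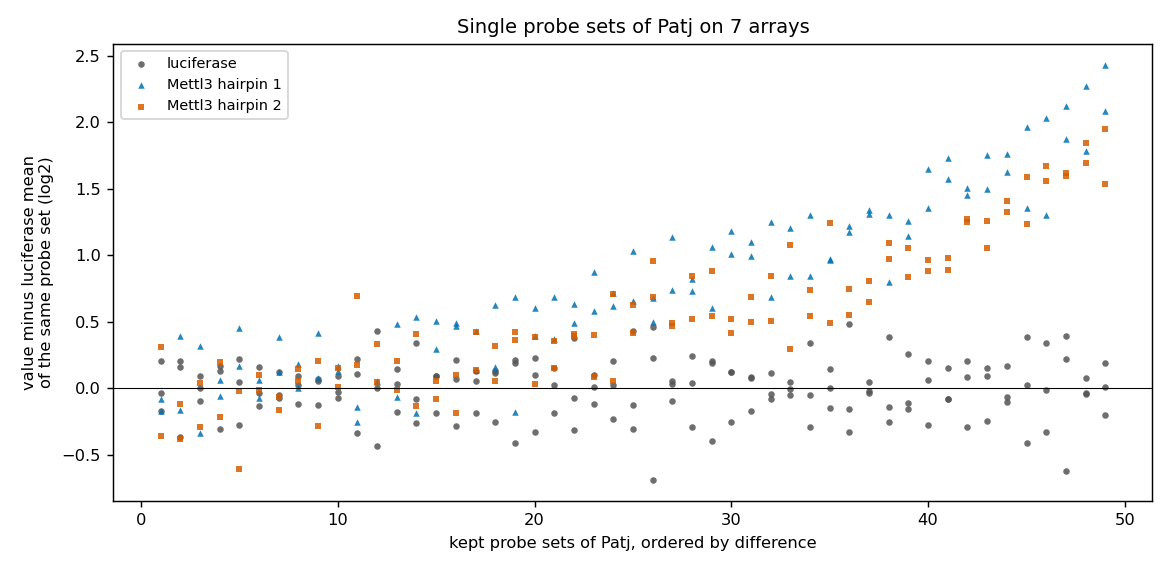
Values of the 49 kept probe sets of Patj on the 7 arrays, each minus the luciferase mean of that probe set (log2), in order of the difference of both hairpins from luciferase. Knockdown arrays overlap the luciferase arrays on the left and lie above all of them on the right, and the order on the horizontal axis is by size, not by position in the gene.

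Of the 49 kept Patj probe sets, 18 passed at an adjusted p of 0.05 (limma over 229811 probe sets), all of them higher with the Mettl3 hairpins, where 1.73% of all kept probe sets passed as higher. In 27 the knockdown arrays lay above all luciferase arrays (12.2% of all kept probe sets), in 22 the groups overlapped, and in none did they lie below (5.94%). With hairpin 1 alone 15 passed as higher (1.02% of all kept probe sets) and with hairpin 2 alone 7 (0.286%). The filter kept 5 probe sets whose luciferase mean was not above 6.02, so these passed it through the knockdown arrays and could not have a difference below 0. The difference of 1 of them, 4801530, was only 0.12, with overlapping groups. In the other direction, probe set 5168170 had a luciferase mean of 6.26 and a difference of -0.71, and was dropped because its knockdown arrays were low. Of the 44 kept probe sets with a luciferase mean above 6.02, 16 passed as higher and 23 had knockdown arrays above all luciferase arrays. In these 44, 13 differed by at least 1, and the median was 0.51. Nothing is read from these counts, since Patj was chosen with its luciferase comparison known. The 14 that were not kept ranged from -0.71 to 1.79, with a median of 0.43, and 9 of them were above 0. With 1 array left out, the count of 18 was 5 (hairpin 2 replicate 2), 6 (luciferase replicate 1), 8 (hairpin 2 replicate 1), 10 (luciferase replicate 3, and hairpin 1 replicate 1), 12 (luciferase replicate 2) or 15 (hairpin 1 replicate 2).

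The hairpins did not differ at single Patj probe sets after adjustment: 0 of 49 passed in hairpin 1 minus hairpin 2 (limma, 0% of 229811 probe sets passed). At an unadjusted p below 0.05, 15 of the 49 differed, 14 of them higher with hairpin 1, beside 6.65% of all kept probe sets. The value was higher with hairpin 1 in 42 of the 49, and the share over all kept probe sets was not computed. These probe sets share the same RNA, so the counts restate the gene-level difference of 0.19 and add no support to it.

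Exon usage was compared with limma's diffSplice, which asks whether the probe sets of a gene change by different amounts. Of the 8 genes, Patj and Dlg1 passed with both hairpins (Simes, 5.93% of all genes passed) and with hairpin 2 (2.61%), and Patj, Dlg1 and Prkci passed with hairpin 1 (7.36%). Nothing is read from these counts either, for the same reason. Between the hairpins, where the difference takes no luciferase value but the spread does, none of the 8 passed (1.29% of all genes). The test gives every probe set of a gene 1 common spread. An alternative added after the data were seen fitted a spread for each probe set, adjusted over all probe sets and took the smallest adjusted p per gene. It called 1 of 16353 genes with both hairpins and none of the 8. Since the adjustment changed along with the spread, the effect of the spread alone is not shown. The hairpin 2 call of Dlg1 was also lost when luciferase replicate 3 or hairpin 2 replicate 1 was left out (1 of 8 passed), and both were lost without hairpin 2 replicate 2 (0 of 8). The Prkci call was lost without any of 5 arrays, which left 2 of 8: luciferase replicates 1 and 2, hairpin 1 replicate 2 and hairpin 2 replicates 1 and 2.

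Dlg1 had probe sets with differences of either sign. Of its 36 probe sets 35 were kept, with differences from -0.63 to 0.66 and a median of -0.06. Probe set 5367141 was at 8.87, 8.85 and 8.70 with luciferase, at 8.38 and 8.0 with hairpin 1 and at 8.12 and 8.23 with hairpin 2 (difference -0.63 ± 0.12 SE). It was the 1 Dlg1 probe set that passed, as lower (0.565% of all kept probe sets). Probe set 5003063 was at 6.57, 6.20 and 6.06, at 7.01 and 6.95, and at 6.77 and 7.04 (difference 0.66 ± 0.14 SE). Probe set 5553863 was at 6.47, 6.63 and 6.43, at 7.47 and 6.96, and at 7.17 and 6.90 (difference 0.61 ± 0.14 SE). Both lay above luciferase on all 4 knockdown arrays and did not pass. In all, 5 of the 35 Dlg1 probe sets lay above and 2 below the luciferase arrays, shares near those of all kept probe sets (12.2% and 5.94%), and 27 were within 0.25 of 0. The call of 5367141 was lost whenever any single array was left out.

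Prkci was lower at every probe set. All 25 of its probe sets were kept and all 25 were lower with the Mettl3 hairpins, with differences from -0.69 to -0.07 and a median of -0.31. The knockdown arrays lay below the luciferase arrays in 16 of the 25 (5.94% of all kept probe sets) and none passed the test. The largest difference was at probe set 5287325, at 8.91, 9.10 and 8.41 with luciferase, at 8.10 and 7.81 with hairpin 1 and at 8.39 and 8.16 with hairpin 2 (difference -0.69 ± 0.18 SE). The gene value of Prkci differed by less than its median probe set (-0.18 against -0.31), since the gene value takes the median on each array before the groups are compared. With trend and robust spreads, 11 of the 25 passed. The share of all kept probe sets that passed in that setting was not computed.

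**Figure D3:**
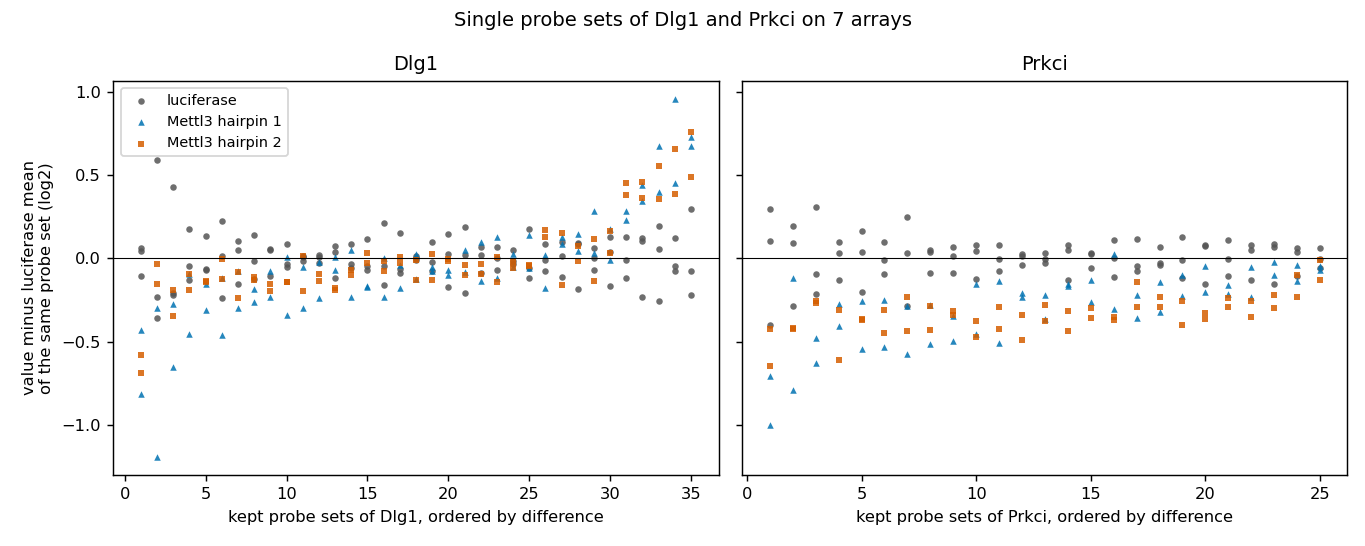
Values of the 35 kept probe sets of Dlg1 and the 25 of Prkci on the 7 arrays, each minus the luciferase mean of that probe set (log2), in order of the difference of both hairpins from luciferase. Dlg1 has knockdown values below the luciferase mean at the left end and above it at the right end, and the Prkci knockdown values lie mostly below it across all 25 probe sets.

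The remaining genes had small differences spread over most of their probe sets. Llgl1 was higher in 25 of its 27 probe sets, by a median of 0.32; the knockdown arrays lay above luciferase in 12, and 2 passed as higher. One of the 2, 4716911, was at 9.04, 8.87 and 8.91 with luciferase, at 9.59 and 9.41 with hairpin 1 and at 9.35 and 9.42 with hairpin 2 (difference 0.50 ± 0.09 SE), and neither call was kept when any single array was left out. Pard3 was higher in 34 of 38 kept probe sets (median 0.13, 13 above all luciferase arrays, largest 0.69 at probe set 5393269), and none passed. Scrib was higher in 39 of 45 (median 0.14, 9 above) and Prkcz in 23 of 32 (median 0.13, 1 above). Pard6b has 5 probe sets, of which 4 were higher (median 0.11, 1 above). Of all kept probe sets, 54.1% were above 0, 12.2% had knockdown arrays above all luciferase arrays and 1.73% passed as higher. Over the 8 genes 21 of 256 passed, where 2.29% of all kept probe sets passed.

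**Figure D4:**
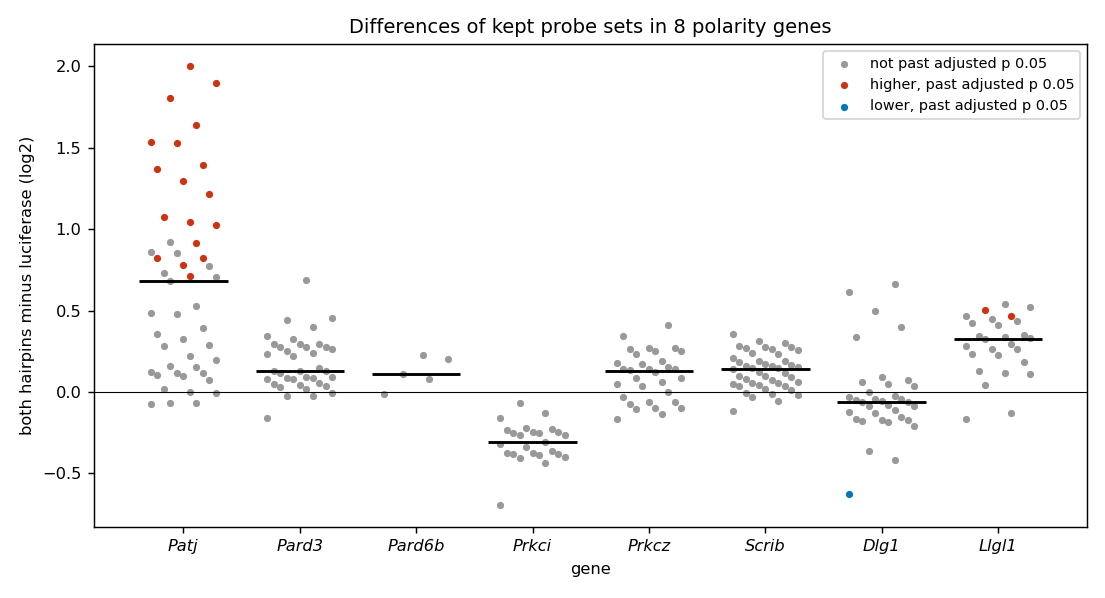
Differences of both Mettl3 hairpins from luciferase (log2) at each kept probe set of the 8 polarity genes, with the median as a line and probe sets past an adjusted p of 0.05 (limma) in colour. Patj spans -0.07 to 2.00, all 25 points of Prkci lie below 0, and Dlg1 has points on both sides, from -0.63 to 0.66.

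The genes around these 8 in the same pathways were taken from 6 lists, of which 67 genes were tested. These lists, too, were drawn up with earlier results of these data known. Their counts and p-values below place the genes in the fit over all genes and are no independent test of the pathways. The filter on dim probe sets used the knockdown arrays for these genes as well. How many of their probe sets were kept through the knockdown arrays alone was not counted, which matters most for dim genes such as Mpdz and Amot. Of the 67, 10 rose and 1 fell with both hairpins (limma, adjusted p below 0.05; 5.53% of all genes rose and 2.37% fell). Their median difference was 0.09, and 43 of 67 (64.2%) were above 0, beside a median of 0.00 and 50.1% over all genes. With hairpin 1 alone 9 rose and 1 fell (3.97% and 1.93% of all genes), and with hairpin 2 alone 4 rose, namely Ocln, Marveld2, Amot and Fzd3 (2.71% of all genes). None passed between the hairpins (limma, 0.104% of all genes passed), and 4 of the 67 had an unadjusted p below 0.05 there (8.78% of all genes). The hairpin 1 count of 10 was 2 without hairpin 1 replicate 1, 3 without replicate 2, 5 without luciferase replicate 1 and 6 without luciferase replicate 3 or either hairpin 2 array. The hairpin 2 count of 4 was 1 without any of the luciferase arrays and 0 without either hairpin 2 array.

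Of 11 Crumbs complex genes and Patj partners, 3 rose and none fell. Mpdz, a multi-PDZ scaffold and the paralogue of Patj, was at 6.81, 6.95 and 6.86 with luciferase, at 7.26 and 7.15 with hairpin 1 and at 7.20 and 7.33 with hairpin 2 (difference 0.36, limma adjusted p = 0.0255). The angiomotins Amot and Amotl1, which bind Patj or Mpdz at junctions and hold back the growth regulator Yap, rose by 0.40 (adjusted p = 0.0106, limma) and 0.32 (adjusted p = 0.0307, limma). Amot was at 6.83, 6.79 and 6.91, at 7.23 and 7.23, and at 7.24 and 7.28, the tightest separation among them. The direct Patj partner Mpp5 was at 0.01 (95% interval -0.18 to 0.20), and the list median was 0.01. Of the membrane anchors, Crb1 was at -0.19, Crb2 at -0.27 and Crb3 at 0.30, and none of them passed with both hairpins; Crb3 passed with hairpin 1 (0.56, adjusted p = 0.0173, limma) and was named after its values were seen.

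The Par complex list had no gene past the test (0 of 8, median -0.13). Its largest differences were at the Rac activator Tiam2 (-0.26) and at Ect2 (-0.21), both with all 4 knockdown arrays below luciferase (8.4% of all genes). In the Scribble group and its relatives, 1 of 12 rose: Dlg4, a relative of Dlg1 known from synapses (0.39, adjusted p = 0.0391, limma; list median 0.10). None of 8 Par1 and Lkb1 kinases passed with both hairpins (median 0.04), and Mark4 (0.32) and Mark1 (0.29) had the largest differences.

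Junction proteins had 5 of the 11 changes: of 17 tested, 4 rose and 1 fell (median 0.12). Occludin, the tight junction protein encoded by Ocln, was at 7.60, 7.78 and 7.57 with luciferase, at 8.16 and 8.30 with hairpin 1 and at 8.32 and 8.30 with hairpin 2 (difference 0.62 ± 0.084 SE, adjusted p = 0.00269, limma). Marveld2, which encodes tricellulin of tricellular contacts, rose by 0.53 (adjusted p = 0.00537, limma). Cgn (cingulin of tight junctions) rose by 0.39 (adjusted p = 0.0129, limma) and Cdh1 (E-cadherin) by 0.32 (adjusted p = 0.0282, limma). The junction adhesion gene Jam2 fell by 0.31 (adjusted p = 0.0406, limma). All 5 had knockdown arrays that did not overlap with luciferase (above in 13.4% and below in 8.4% of all genes). They were named because they passed, so this separation is no further evidence. Of 11 planar cell polarity genes, 2 rose, the frizzled receptor Fzd3 (0.50, adjusted p = 0.0114, limma) and the large cadherin Celsr2 (0.45, adjusted p = 0.00907, limma), and none fell (median 0.14).

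The calls differed in how firmly they held. Ocln and Marveld2 passed in all 16 alternatives run, Fzd3 and Celsr2 in 15, Amot in 14 and Cgn in 13, although Marveld2 ranged from 0.32 to 1.22 and Amot from 0.20 to 0.68 over the filters on dim probe sets. Cgn was lost without a filter (limma adjusted p 0.0714), with the replicate block (0.0801) and with the crossed block (0.0735), and Dlg4 was at 0.11 under the stricter filter. Without luciferase replicate 1 the count of 11 was 5, and Amot, Amotl1, Mpdz, Dlg4, Cdh1 and Jam2 no longer passed (limma adjusted p 0.0524, 0.126, 0.112, 0.114, 0.118 and 0.154). It was 6 when luciferase replicate 3, hairpin 1 replicate 1 or hairpin 2 replicate 2 was left out, which each ended the calls of Amotl1, Mpdz, Dlg4, Cdh1 and Jam2 (limma adjusted p from 0.0628 to 0.123, from 0.0727 to 0.105 and from 0.101 to 0.137). Amotl1 and Cdh1 were also lost without luciferase replicate 2 (0.0721 and 0.0554) or hairpin 2 replicate 1 (0.0739 and 0.0624), Jam2 without hairpin 2 replicate 1 (0.0970) or hairpin 1 replicate 2 (0.0713), and Dlg4 without the latter (0.0518).

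**Figure D5:**
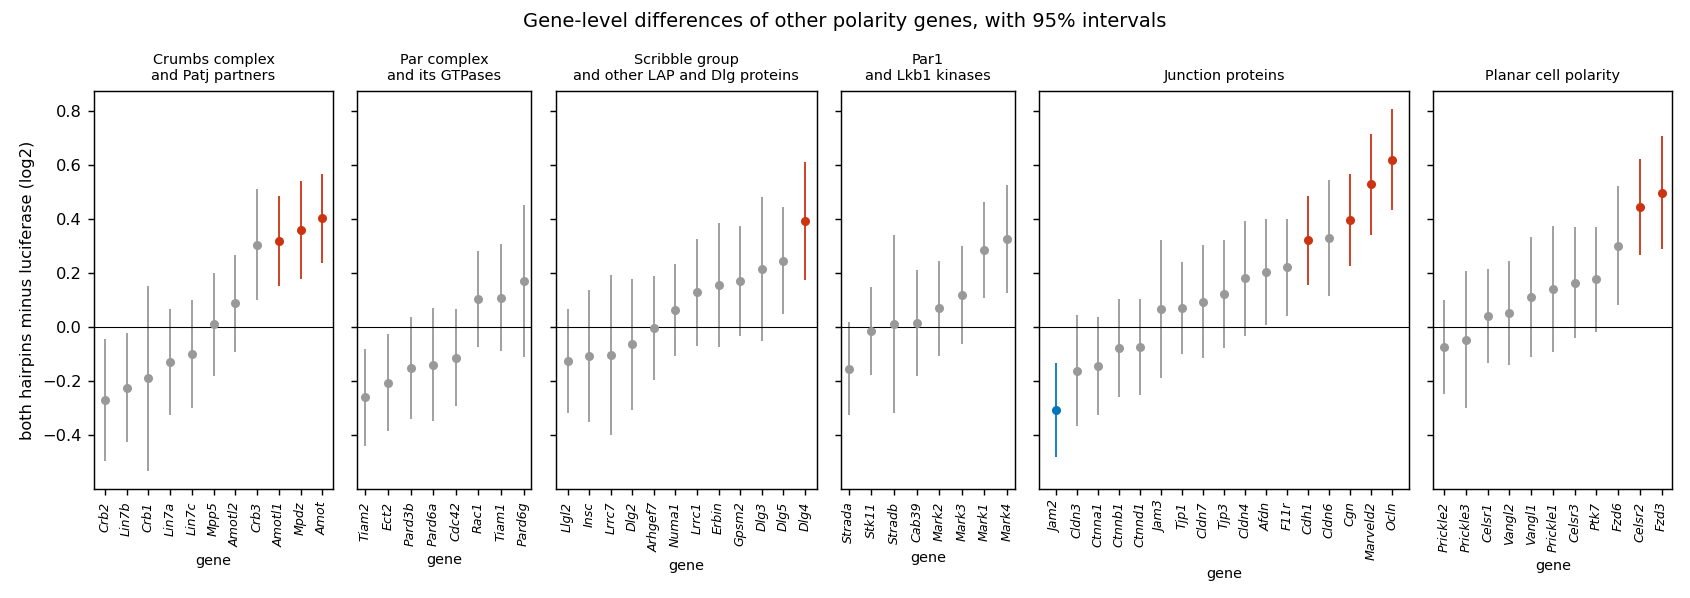
Differences of both Mettl3 hairpins from luciferase (log2) for the 67 other polarity genes by list, with 95% intervals of the limma fit; red marks genes that rose and blue the gene that fell at an adjusted p of 0.05. Ocln at 0.62 and Marveld2 at 0.53 are the highest points, and Jam2 at -0.31 is the 1 gene that fell.

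The genes with the pattern most like that of Patj over the 7 arrays were Stk39, Tmem47, Arrdc1, Chd3 and Snap25. Likeness was the root mean square difference between gene values, each centred on its mean over the arrays, and it was 0.0475 for Stk39, 0.0536 for Tmem47, 0.0604 for Arrdc1, 0.0638 for Chd3 and 0.0727 for Snap25, beside a median of 0.382 over all genes. Stk39, a stress-response kinase, was at 6.75, 6.92 and 6.87 with luciferase, at 7.66 and 7.59 with hairpin 1 and at 7.35 and 7.53 with hairpin 2. Like Patj, it was highest with hairpin 1 and lowest with luciferase. Tmem47, a membrane protein of cell junctions, was at 9.56, 9.67 and 9.72, at 10.41 and 10.34, and at 10.21 and 10.13. The measure takes 7 arrays in 3 groups, so any gene that is higher with both hairpins, and more so with hairpin 1, comes close.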

How the data were processed

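RNA was measured on 7 arrays, 1 per sample. The authors deposited log2 values per exon-level probe set; the submitters' processing notes name RMA and R 2.11.1. The sources used here give no RMA package, probe set definition, genome build or filter. RMA makes array distributions alike, which would hide any general shift, and few arrays limit the precision. No array was a copy of another.

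Symbols came from the platform annotation: 311384 probe sets had 1 symbol, 6385 several and 883569 none. An older symbol was updated through a RefSeq table (GRCm38.p6) for 45560 probe sets. Gene values were medians, on each array, of probe sets with 1 symbol and a mean above 6.02, at least 3 per gene, which left 229811 probe sets and 16353 genes. All 7 arrays entered limma 3.58.1 in R 4.3.3 (lmFit, eBayes, 1 mean per group, 4 residual degrees of freedom), adjusted by Benjamini-Hochberg over all genes or probe sets. Exon usage was tested with diffSplice. The scripts were tested on simulated data.

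The 8 genes, the 6 polarity lists and the 5 marker lists were chosen with earlier results of these data known. Named items are Mettl3, the 8 genes, their 3 probe sets with the largest difference (8 for Patj), up to 4 called genes per polarity list (the 2 largest where none was called), and the 5 genes nearest to Patj. Marker genes are named where they passed; others were named after their values were seen. Alternatives were other filters, scalings, spreads and summaries, a replicate block and leaving out each array. Groups share replicate numbers in the labels, but same-numbered arrays did not deviate together (correlations -0.262 to 0.083), so they were not taken as pairs.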

Additional observations from a re-analysis of the deposited data

Results flagged for a closer look

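The comparison of hairpin 1 with hairpin 2 left 3 marker genes, none of them among the 8 polarity genes, whose effect differed between the hairpins by a test of the difference itself. Tagln was 0.83 higher with hairpin 1 than with hairpin 2 (limma, adjusted p = 0.0438), with luciferase arrays at 6.98, 7.01 and 7.03, hairpin 1 at 8.31 and 8.08 and hairpin 2 at 7.43 and 7.31. Krt18 was 0.78 higher with hairpin 1 (limma, adjusted p = 0.0438) and Krt8 was 0.75 higher (limma, adjusted p = 0.0448). All 4 arrays with a Mettl3 hairpin lay above the luciferase arrays for these genes.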

How the results depend on the processing

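The signs of the gene value differences of the 8 genes were kept under all 16 alternatives, and Patj ranged from 0.52 to 0.74. Keeping all dim probe sets gave Patj 0.52, 0 of 8 genes for hairpin 1 and 0 for hairpin 2, 9 probe sets of the 8 genes, and 4, 2 and 0 other polarity genes (both hairpins, hairpin 1, hairpin 2). The stricter filter gave 2 of 8 genes with both hairpins and 2 with hairpin 1 (Llgl1 and Patj) and exon usage in 1 gene for hairpin 2. Centring moved the median gene difference to -0.06 and left 2 other polarity genes for hairpin 2, and quantile normalization gave exon usage in 4 genes. Trend and robust spreads called 50 probe sets of the 8 genes. The mean of probe sets called 4, 3 and 3 of 8 genes and 24, 20 and 14 other polarity genes, and median polish 4, 4 and 3 with 23, 21 and 14 and a Patj difference of 0.57. With each probe set's own spread and adjustment over all probe sets, exon usage called 0, 0 and 0 of the 8 genes. This alternative and the crossed block were added after the data were seen. Except for exon usage with each probe set's own spread, the share of all genes or probe sets that passed was computed for the main fit only. The counts under the alternatives therefore have no background of their own. A larger count is not read as a stronger change of polarity genes. The cause of these shifts was not tested.

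With the replicate block, 5, 3 and 1 other polarity genes, 0 probe sets of the 8 genes and exon usage in 1 gene for hairpin 2 passed; Patj kept its gene-level calls, and Dlg1 lost its exon usage call with both hairpins. With the crossed replicate block, 5, 2 and 0 other polarity genes, 0 probe sets, 0 of 8 genes for hairpin 2 and exon usage in 1 gene for hairpin 2 passed. Luciferase replicate 3 is the only array with its number, so either block takes it out of the comparison. The differences under both blocks therefore equal those of the fit without that array (Mpdz 0.352 in each), and the blocks are no separate check of them.

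Leaving out each array gave 5 to 10, 2 to 7 and 0 to 4 other polarity genes, 5 to 15 probe sets of the 8 genes, 1 to 2 of 8 genes with both hairpins, 0 to 1 with hairpin 2, and exon usage in 0 to 2 genes for hairpin 2. A lone array in a group was assumed to vary like the other groups. With 2 or 3 arrays per group, small differences are not detectable, least of all at dim probe sets.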
